A study of Mus musculus with 38 samples.

Results

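The genes described here make up or control the stratified, cornifying epithelium of the forestomach. They were taken from a fixed list of 42 genes that holds keratins, precursors of the cornified envelope, the enzymes and plakins that build it, desmosome proteins, 1 protease and transcription regulators of this epithelium. Of the 42 genes, among 20018 genes with a symbol on the arrays, 41 had a probe, and Flg had none. Membership was set by gene name and not by a cutoff on measured values, although the list was chosen with earlier results of these data known. All animals were male Muta™Mouse, a transgenic strain used for mutation assays, aged about 10 weeks. Control mice (D0) were gavaged with olive oil alone, and 3 other groups received dibenz(ah)anthracene (DBahA, a polycyclic aromatic hydrocarbon) in olive oil for 28 days at daily doses of 6.25 (D1), 12.5 (D2) and 25 (D3) mg/kg body weight. Forestomach and lung of these animals were taken 72 hours after the final dose. RNA came from random sections of each snap-frozen organ, so the share of epithelium in a section was not controlled. Each array set a Cy5-labelled tissue sample against a Cy3-labelled universal mouse reference RNA pooled from cell lines, with no dye swap. Values are therefore log2 ratios of tissue to reference, and a ratio of one gene cannot be set against that of another. In forestomach, D0 held 5 mice (numbers 1 to 5), D1 held 5 (6 to 10), D2 held 4 (11, 12, 13 and 15) and D3 held 4 (16 to 19), and values per mouse are given in that order. Mouse 18 had 2 forestomach arrays by the labels, which were averaged. No forestomach array was labelled mouse 20 of D3, which had a lung array. Whether both arrays came from mouse 18 was not tested. If they did not, different animals were averaged as 1 replicate. In lung 19 mice were measured, with 5 in each of D0, D1 and D3 and 4 in D2.

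The rodent forestomach is lined by a squamous epithelium that renews itself from a single basal layer. Basal cells carry the keratin pair 5 and 14 and are held to each other by desmosomes. As cells move upward they switch to other keratins, lay down envelope proteins under the membrane, and transglutaminases crosslink these proteins into an insoluble shell before the dead squames are shed. The glandular stomach and the lung are lined by other epithelia that do not cornify. Because the samples are bulk tissue, fewer cells of a type and less RNA per cell cannot be told apart in any of the values.

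Of the 41 genes with a probe, 32 were well above background on all 19 forestomach arrays, 14 were so on all 19 lung arrays and 14 on no lung array. Krt36 was above background on 1 forestomach array, Pax9 on 5, Crnn on 8 and Dsg1a on 12. The share of all probes well above background was 30.1% to 60.8% on forestomach arrays and 41.5% to 63.8% on lung arrays. Correlation between arrays of a group ran from 0.659 to 0.966 in forestomach and from 0.922 to 0.960 in lung. The forestomach arrays stood apart by glandular stomach content. A score was taken as the mean log2 ratio of 10 glandular stomach genes relative to the D0 mean. It lay between -3.59 and -2.98 on 6 arrays (D0 mice 2 and 5, D1 mice 8 and 9, D2 mouse 15 and the first array of mouse 18) and between 0.83 and 2.83 on the other 13. The 2 arrays of mouse 18 scored -2.98 and 2.41 and correlated at 0.773, where pairs of forestomach D3 arrays ran from 0.766 to 0.966. The hybridisations used 5 slides read on 3 scan days, and slide 1 held no forestomach D0 array. As a check of the tissue labels, all 6 lung alveolar and airway genes were called lower in forestomach D0 than in lung D0, with a median log2 difference of -5.71, and all 7 smooth muscle genes were called higher.

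The unexposed forestomach was first compared with the unexposed lung to describe where these genes are expressed. Of the 41 genes, 33 were called higher in forestomach D0 than in lung D0 and 0 lower (adjusted p at most 0.05 by limma with Benjamini-Hochberg adjustment over 55681 probes, and a fold change of at least 1.5). Over all probes 16.2% were called, 7.6% higher and 8.62% lower. The genes' median log2 difference was 3.17, against 0.01 over all probes. For 15 of the 33 the probe was not well above background on any lung D0 array, so that their fitted difference is one from a background value. These were Krt1, Krt4, Krt6a, Krt13, Krt17, Krt78, Krt84, Ivl, Sprr1b, Sprr3, Rptn, Dsg3, Dsc2, Dsc3 and Pkp1. Of the 5 lung D0 arrays, the probe was well above background on 1 for Krt15, 2 for Krt5 and Krt6b, 3 for Tgm1 and 4 for Krt14. The suprabasal keratin Krt10 differed by 7.07 (SE 0.218) by its brightest probe and by 4.12 by its other probe. Sizes depended on the probe elsewhere too, as in Krt6b (6.68 and 3.74) and Dsc3 (2.01 and 0.51, the latter not called). All 3 basal, all 5 suprabasal and all 4 stress keratins were called, with 1 of 2 hair-type keratins, 7 of 8 envelope precursors, 3 of 4 transglutaminases and plakins, 6 of 8 desmosome genes, the protease, and 3 of 6 regulators. Among 49 other squamous differentiation genes on the arrays, 44 were called higher and 1 lower, with a median of 2.99. Of 10 adhesion genes of the basal layer, 3 were called higher, among them Col17a1 at 2.92, and 5 lower. With each array centred on its median in place of loess, 28 of the 41 genes were called higher, and the split of all calls moved from 46.9% higher to 16.2% higher. That scaling put the median of 14580 bright probes at -0.47, above which the genes' median lay by 2.31 in place of 3.12, and 6 genes lost their call under it (Krt5, Krt6a, Evpl, Ppl, Klf4 and Klf5) while Dsg1a gained one.

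**Figure D1:**
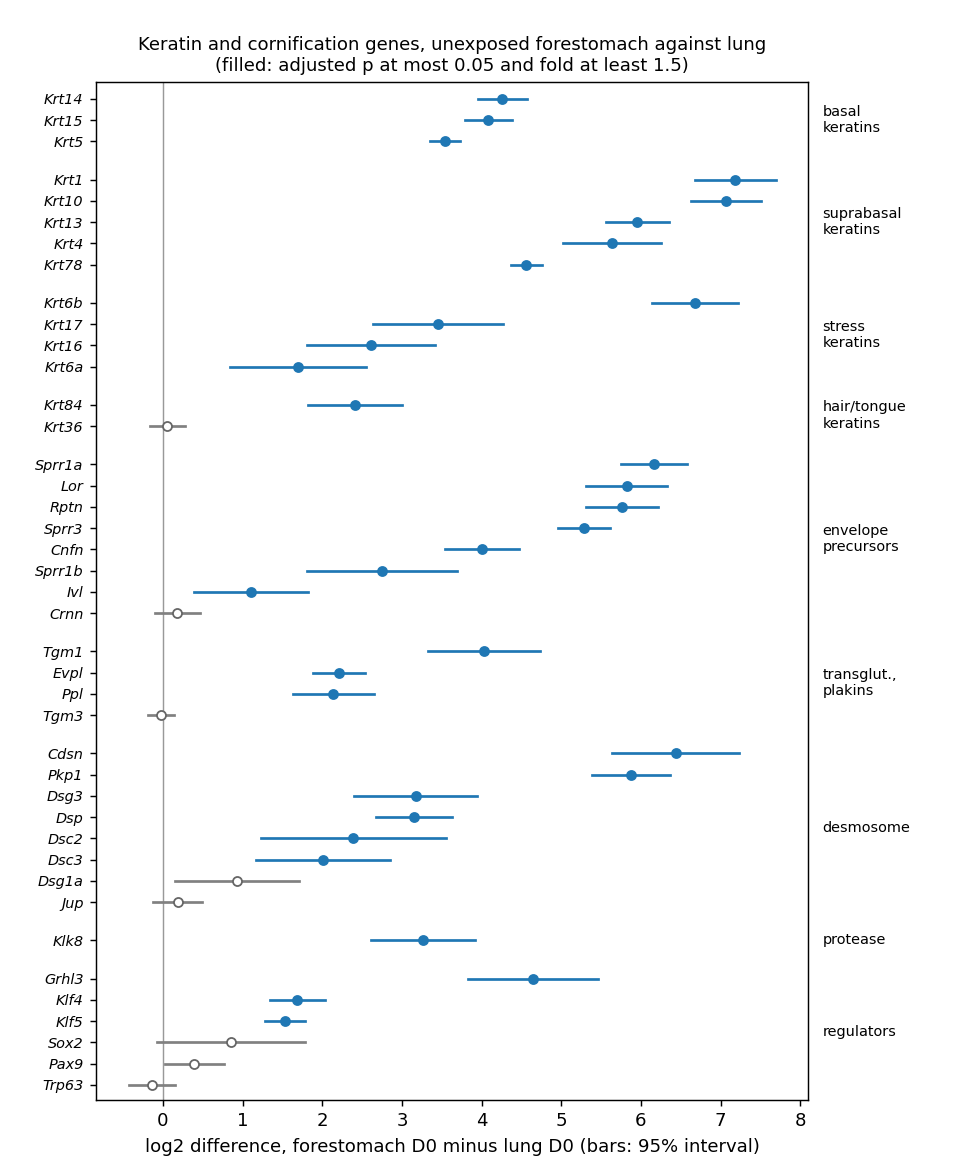
Log2 difference between forestomach D0 and lung D0 for the 41 genes (horizontal axis), grouped by role, each with its 95% interval from limma and n = 5 mice a tissue. The 33 genes called higher lie between 1.11 (Ivl) and 7.19 (Krt1), where for 15 of them the lung probe was at background, and the 8 others lie between -0.14 and 0.93.

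After DBahA, no gene of the list passed the test in forestomach at any dose: 0 of 41 were called at D1, D2 and D3, where 0% of all 55681 probes were called at each dose (limma, Benjamini-Hochberg). At an unadjusted p of 0.05, 0 of the 41 genes passed at each dose, against 2402, 1737 and 1986 of all probes. The D0 and dosed mice overlapped for each of the 41 genes at each dose, where 0.549%, 0.97% and 1.13% of probes did not overlap. For D1, D2 and D3 in turn, the genes' median log2 difference from the controls was 0.14, -0.00 and 0.21, with 28, 20 and 34 of the 41 values above 0. Over all probes the median lay within 0.01 of 0 at each dose. At D3 the values ran from -0.18 for Cnfn to 0.76 for Dsc2 (95% interval -1.003 to 2.53). All 8 desmosome genes and all 6 regulators had values above 0 at D3, while all 3 basal keratins had values below 0. This split depended on the probe, since the other probe of Krt5 had a D3 value of 0.56 and that of Trp63 one of -0.22. None of these values passed the test, and their intervals do not show that the groups were alike. The 49 other squamous differentiation genes had 0 called at each dose and medians of 0.22, 0.01 and 0.23. The 3 with the widest D3 values were Serpinb2 (1.12), Scel (0.73) and Dsg1b (0.71), none of them called.

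**Figure D2:**
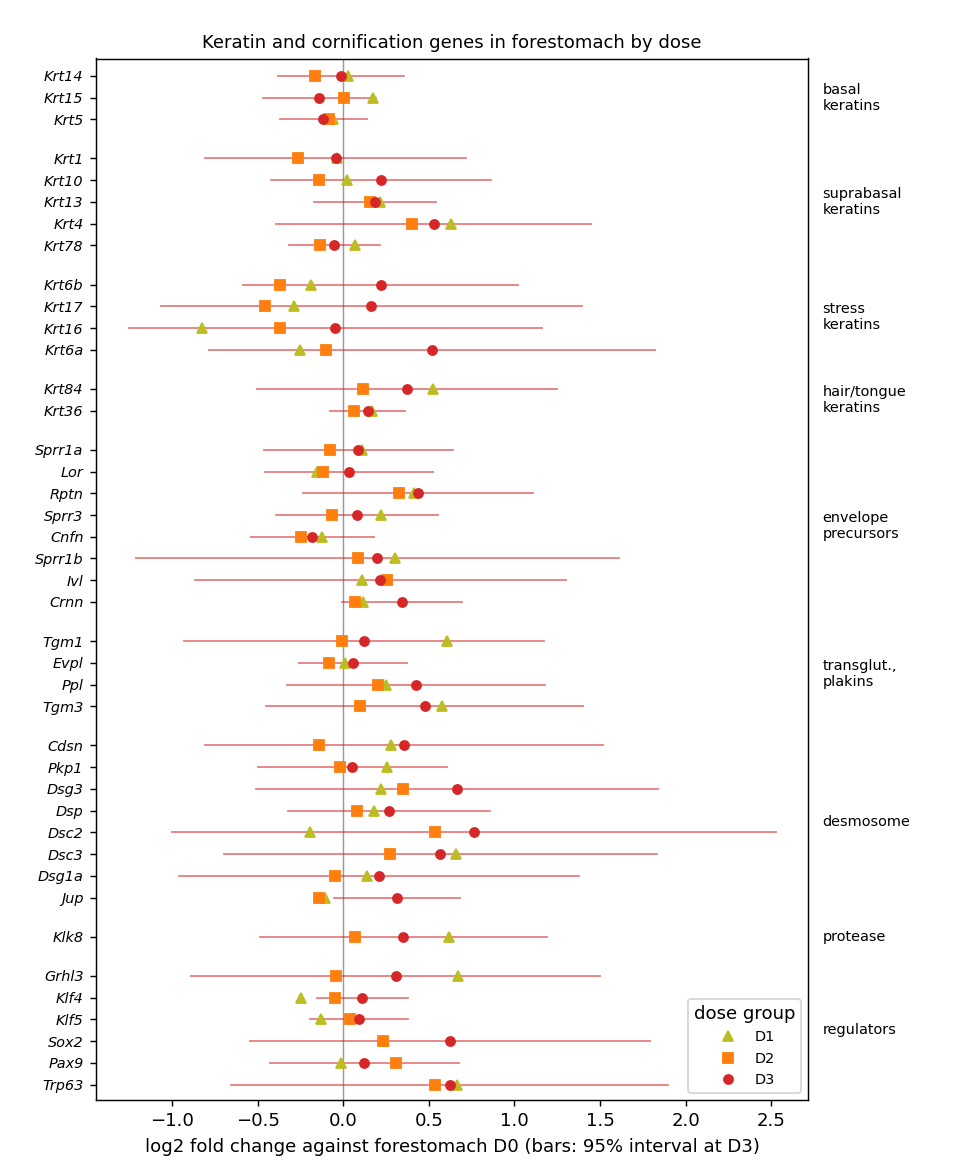
Log2 difference from D0 in forestomach for the 41 genes at D1, D2 and D3, grouped by role, with the zero line marking the D0 mean. Values at D3 lie between -0.18 and 0.76 and none passed the limma test, while the medians are 0.14, -0.00 and 0.21.

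Basal keratins form the filaments of the dividing layer and, by the brightest probe of each, varied little between mice. Krt5, the type II partner of the basal pair, was 3.51 ± 0.23 (SD, n = 5) in forestomach D0 by its brightest probe, with a tissue difference of 3.54. Its other probe had a tissue difference of 2.20 and did not follow the first over the forestomach arrays (r = -0.14). Krt14, its type I partner, had log2 ratios of 3.21, 3.33, 3.50, 3.78 and 3.68 at D0, 3.68, 3.29, 3.61, 3.45 and 3.59 at D1, 3.72, 2.67, 3.45 and 3.50 at D2 and 3.73, 3.47, 3.46 and 3.28 at D3. D2 mouse 12 was the lowest of all, and the other 17 mice lay between 3.21 and 3.78 with the dose groups overlapping. In the lung D0 mice Krt14 was -0.76 ± 0.18 (SD, n = 5), and the tissue difference was 4.26 (SE 0.152, adjusted p = 1.58e-21 by limma with Benjamini-Hochberg). Krt15, another type I keratin of basal cells, had log2 ratios of 3.00, 3.32, 3.31, 3.35 and 3.54 at D0, 3.67, 3.37, 3.67, 3.16 and 3.53 at D1, 3.41, 3.47, 3.35 and 3.02 at D2 and 3.43, 3.38, 3.19 and 2.66 at D3. D3 mouse 19 was the lowest, and the groups overlapped. The D3 difference was -0.01 for Krt14 (95% interval -0.38 to 0.35) and -0.14 for Krt15 (-0.47 to 0.19).

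Suprabasal keratins replace the basal pair as cells differentiate. Krt4 and Krt13 are the pair of internal squamous linings such as oesophagus, Krt1 and Krt10 that of keratinising epidermis, and both pairs were far higher in forestomach than in lung. Krt1 log2 ratios were 7.33, 5.94, 7.03, 7.32 and 7.36 at D0, 7.21, 6.25, 6.85, 7.11 and 7.37 at D1, 7.11, 5.62, 6.99 and 7.22 at D2 and 7.15, 6.19, 7.03 and 7.44 at D3. In each dose group 1 mouse lay well below the rest, namely mice 2, 7, 12 and 17. These 4 are the forestomach mice hybridised on slide 2, and the groups overlapped. Its tissue difference of 7.19 had an adjusted p of 7.63e-22 by limma. In the lung D0 mice Krt1 was not well above background, so this is a difference from a background value. Krt4 log2 ratios were 4.95, 6.21, 5.19, 5.12 and 6.65 at D0, 7.49, 5.87, 5.86, 5.92 and 6.12 at D1, 6.74, 5.05, 6.02 and 6.29 at D2 and 6.94, 6.16, 6.14 and 5.36 at D3. D1 mouse 6 was the highest of all and D0 mouse 1 the lowest, and the groups overlapped. Krt4 had the largest D3 value of this role at 0.53 (95% interval -0.39 to 1.45). Krt78, a type II keratin of suprabasal layers, had log2 ratios of 4.43, 4.22, 4.46, 4.65 and 4.55 at D0, 4.67, 4.38, 4.51, 4.61 and 4.48 at D1, 4.54, 3.85, 4.43 and 4.48 at D2 and 4.58, 4.29, 4.44 and 4.32 at D3. D2 mouse 12 was the lowest at 3.85, and mice 2, 7, 12 and 17 of slide 2 were again the lowest of their groups. Krt78 differed from D0 by -0.05 at D3 (95% interval -0.32 to 0.21). Krt10 and Krt13 had tissue differences of 7.07 and 5.96 (4.12 and 5.19 by their other probes) and D3 values of 0.22 and 0.19.

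**Figure D3:**
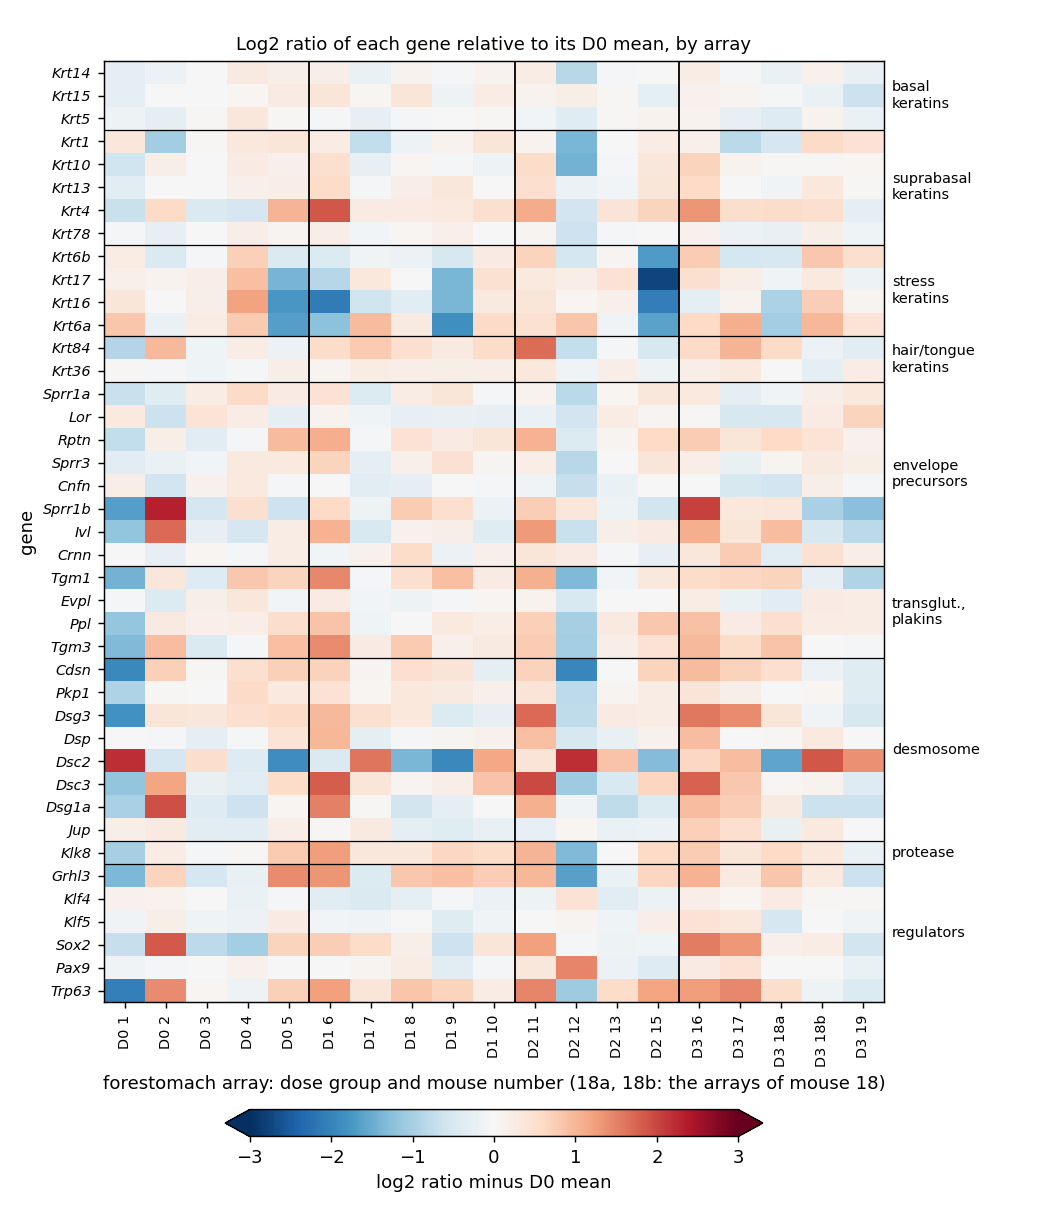
Log2 ratio of each of the 41 genes on each of the 19 forestomach arrays, relative to that gene's D0 mean, with genes in rows by role and arrays in columns by dose group. D1 mouse 6, D2 mouse 11 and D3 mouse 16 are mostly above the D0 mean, and D0 mouse 1 and D2 mouse 12 mostly below it.

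Stress keratins are known for their induction in wounded or overgrowing epithelium. All 4 were higher in forestomach than in lung, with differences of 1.70 (Krt6a), 6.68 (Krt6b, 3.74 by its other probe), 2.61 (Krt16) and 3.45 (Krt17). In lung D0 the probes of Krt6a and Krt17 were well above background on 0 of 5 arrays, that of Krt6b on 2 and that of Krt16 on 5. Krt6a and Krt6b are near-identical copies, so cross-hybridisation between their probes cannot be told apart from their own signal. Krt6a log2 ratios were 2.62, 1.59, 2.01, 2.57 and 0.14 at D0, 0.55, 2.74, 2.06, -0.05 and 2.37 at D1, 2.25, 2.61, 1.69 and 0.19 at D2 and 2.39, 2.87, 1.76 and 2.19 at D3. D0 mouse 5, D1 mice 6 and 9 and D2 mouse 15 lay at 0.55 or below and the other 14 mice at 1.59 or above, so that each of D0, D1 and D2 held both high and low mice. At D3 the value of 1.76 for mouse 18 is the mean of 0.74 on its first array and 2.78 on its second, so a low array was also present there. Krt16, the partner of Krt6, had log2 ratios of 3.03, 2.67, 2.86, 3.89 and 0.93 at D0, 0.59, 2.08, 2.35, 1.29 and 2.95 at D1, 3.04, 2.74, 2.83 and 0.60 at D2 and 2.41, 2.78, 2.57 and 2.75 at D3. The same 4 mice were the lowest again, all at 1.29 or below, while D0 mouse 4 was the highest. For Krt16 the first and second arrays of mouse 18 had 1.73 and 3.42. Krt6b log2 ratios were 6.97, 6.32, 6.71, 7.46 and 6.33 at D0, 6.35, 6.63, 6.59, 6.27 and 7.01 at D1, 7.42, 6.24, 6.85 and 5.05 at D2 and 7.52, 6.22, 6.93 and 7.23 at D3. D2 mouse 15 was the lowest and D3 mouse 16 the highest, with all dose groups overlapping D0. The D3 differences were 0.52 for Krt6a (95% interval -0.79 to 1.82), 0.22 for Krt6b (-0.58 to 1.02), -0.05 for Krt16 (-1.25 to 1.16) and 0.16 for Krt17 (-1.07 to 1.39). At D1 and D2 all 4 had values below D0, the lowest being Krt16 at -0.82 in D1 (95% interval -1.96 to 0.31), and none passed the test.

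Hair and tongue type keratins are found in hard keratinised structures and tongue papillae. Krt84 log2 ratios were 1.53, 3.38, 2.28, 2.63 and 2.23 at D0, 2.96, 3.19, 2.90, 2.67 and 2.96 at D1, 4.08, 1.70, 2.38 and 1.93 at D2 and 2.99, 3.42, 2.61 and 2.10 at D3. D2 mouse 11 was the highest and D0 mouse 1 the lowest, and the groups overlapped. It was called higher in forestomach than in lung by 2.41 (SE 0.291), and at D3 it differed from D0 by 0.37 (95% interval -0.50 to 1.25). Krt36 log2 ratios were -0.11, -0.19, -0.27, -0.20 and 0.03 at D0, -0.07, 0.06, 0.05, 0.02 and 0.04 at D1, 0.17, -0.26, 0.05 and -0.29 at D2 and 0.05, 0.14, -0.28 and 0.07 at D3. All 18 values lay between -0.29 and 0.17 with no separation of groups, and the probe was above background on 1 forestomach array, so its tissue difference of 0.06 rests on values near background.

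Envelope precursors are the proteins that transglutaminases link into the cornified envelope, and many lie side by side in the epidermal differentiation complex on chromosome 3. Promoter sequences were in RefSeq (GRCm38.p6) for 26 of the 42 genes, in 29 windows of 250 bases before to 50 bases after the annotated start. Searches on both strands looked for the AP-1 letters TGANTCA, for the KLF letters GGGNGTGG, for the GRHL letters AACCNGTT and for TATAAA as the core of a TATA box. AP-1 letters stood in 9 of the 29 windows (31.0%) and in 7.81% of all 32851 windows, TATA letters in 11 (37.9%) and 13.6%, KLF letters in 3 (10.3%) and 17.6%, and GRHL letters in 1 (3.45%) and 2.09%. Windows with both AP-1 and TATA letters belonged to 7 genes (24.1% of the 29 windows, against 1.54% of all windows): Crnn, Flg, Ivl, Lor, Rptn, Sprr1a and Sprr1b. All 7 are on chromosome 3, where 9 of the genes were searched. Below are the 250 bases before the start of 4 of them and of the basal keratin gene Krt5, chosen to show windows with and without these letters. Each is written 5′ to 3′ on the gene's strand with matched letters in capitals.
Sprr1a (GRCm38.p6 chr3:92485882-92486131, minus strand): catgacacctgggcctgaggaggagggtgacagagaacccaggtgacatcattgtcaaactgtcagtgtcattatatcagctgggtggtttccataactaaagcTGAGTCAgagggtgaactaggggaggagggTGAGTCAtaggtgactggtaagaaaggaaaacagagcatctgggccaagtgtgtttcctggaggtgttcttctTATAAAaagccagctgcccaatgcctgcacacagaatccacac
Rptn (GRCm38.p6 chr3:93393449-93393698, plus strand): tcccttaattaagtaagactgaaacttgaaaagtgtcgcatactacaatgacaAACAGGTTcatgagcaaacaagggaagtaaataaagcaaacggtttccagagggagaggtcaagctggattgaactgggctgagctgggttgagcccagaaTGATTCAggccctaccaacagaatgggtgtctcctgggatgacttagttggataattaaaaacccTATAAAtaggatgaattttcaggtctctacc
Ivl (GRCm38.p6 chr3:92573736-92573985, minus strand): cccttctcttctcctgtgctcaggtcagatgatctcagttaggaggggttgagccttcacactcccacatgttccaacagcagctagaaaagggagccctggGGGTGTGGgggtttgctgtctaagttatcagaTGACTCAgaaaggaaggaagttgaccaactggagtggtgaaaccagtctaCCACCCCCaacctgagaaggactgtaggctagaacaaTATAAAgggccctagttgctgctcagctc
Lor (GRCm38.p6 chr3:92083143-92083392, minus strand): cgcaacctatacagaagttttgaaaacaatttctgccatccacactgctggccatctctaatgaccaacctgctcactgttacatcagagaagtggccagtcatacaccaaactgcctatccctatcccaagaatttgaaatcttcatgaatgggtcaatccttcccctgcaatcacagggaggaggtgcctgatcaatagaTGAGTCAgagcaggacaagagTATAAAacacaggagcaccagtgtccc
Krt5 (GRCm38.p6 chr15:101712906-101713155, minus strand): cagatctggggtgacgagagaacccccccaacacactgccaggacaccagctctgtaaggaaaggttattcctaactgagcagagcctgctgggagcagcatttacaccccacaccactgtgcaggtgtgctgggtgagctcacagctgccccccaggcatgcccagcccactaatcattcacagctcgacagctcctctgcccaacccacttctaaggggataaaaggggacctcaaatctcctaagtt
The TATA letters began 43, 31, 29 and 27 bases before the start in Sprr1a, Rptn, Ivl and Lor. AP-1 letters began 146 and 116 bases before the start in Sprr1a, 96 in Rptn, 116 in Ivl and 48 in Lor. Rptn also held the GRHL letters and Ivl the KLF letters at 2 places, while the Krt5 window held none of the 4. A match is a description of letters and not of a bound site, and the arrays did not measure binding.

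Of the 8 precursors with a probe, 7 were higher in forestomach than in lung. Lor (loricrin, the main envelope protein of epidermis) differed by 5.82, Sprr3 (a small proline-rich crosslinker) by 5.28 and Ivl (involucrin, the early envelope scaffold) by 1.11. Crnn, which codes for cornulin, differed by 0.18 (95% interval -0.10 to 0.46) and was above background on 8 forestomach arrays. Sprr1a, a small proline-rich crosslinking protein, had log2 ratios of 3.40, 3.70, 4.29, 4.64 and 4.31 at D0, 4.50, 3.65, 4.29, 4.43 and 4.03 at D1, 4.18, 3.27, 4.12 and 4.40 at D2 and 4.37, 3.78, 4.11 and 4.38 at D3. D2 mouse 12 was the lowest and D0 mouse 4 the highest, and the groups overlapped. In lung D0 it was -2.09 ± 0.16 (SD, n = 5), and the tissue difference was 6.16 (SE 0.205, adjusted p = 2.75e-22 by limma). Rptn, which codes for the S100-fused protein repetin, had log2 ratios of 5.20, 6.12, 5.59, 5.87 and 6.90 at D0, 7.02, 5.89, 6.36, 6.17 and 6.30 at D1, 6.97, 5.52, 6.02 and 6.53 at D2 and 6.69, 6.30, 6.43 and 6.06 at D3. The highest were D1 mouse 6, D2 mouse 11 and D0 mouse 5, and D0 mouse 1 was the lowest. Cnfn, cornifelin, had log2 ratios of 5.97, 5.19, 5.88, 6.05 and 5.72 at D0, 5.76, 5.45, 5.49, 5.76 and 5.72 at D1, 5.65, 5.06, 5.56 and 5.78 at D2 and 5.76, 5.29, 5.56 and 5.71 at D3. Mice 2, 7, 12 and 17 of slide 2 were the lowest of their groups here too, and the D3 mice all lay within the D0 range. Sprr1b log2 ratios were 0.67, 4.64, 1.79, 2.81 and 1.69 at D0, 2.92, 2.16, 3.08, 2.83 and 2.14 at D1, 3.05, 2.66, 2.17 and 1.76 at D2 and 4.37, 2.63, 2.01 and 1.07 at D3. Its D0 mice alone spanned 0.67 (mouse 1) to 4.64 (mouse 2), and every dosed mouse lay inside that span. At D3 the differences were 0.44 for Rptn (95% interval -0.24 to 1.11), 0.20 for Sprr1b (-1.21 to 1.61), 0.09 for Sprr1a (-0.46 to 0.64) and -0.18 for Cnfn (-0.54 to 0.18).

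Transglutaminases crosslink the envelope, and the plakins envoplakin (Evpl) and periplakin (Ppl) scaffold it beneath the membrane. Tgm1, the membrane-bound enzyme, had log2 ratios of 3.13, 4.88, 4.16, 5.34 and 5.20 at D0, 5.99, 4.49, 5.03, 5.44 and 4.78 at D1, 5.61, 3.22, 4.45 and 4.87 at D2 and 5.09, 5.16, 4.76 and 3.65 at D3. D1 mouse 6 was the highest, and D0 mouse 1 and D2 mouse 12 the lowest. Tgm1 was 4.03 higher than in lung (adjusted p = 2.04e-11 by limma). Tgm3, which is activated by proteolysis, had log2 ratios of 1.54, 3.79, 2.42, 2.79 and 3.76 at D0, 4.28, 3.11, 3.65, 3.01 and 3.13 at D1, 3.63, 1.84, 3.07 and 3.29 at D2 and 3.83, 3.41, 3.29 and 2.82 at D3 by the probe that was brighter in forestomach. D1 mouse 6 was again the highest and D0 mouse 1 the lowest. Its 2 probes disagreed between tissues, at 2.80 (adjusted p = 3.84e-09 by limma) for this probe and -0.02 for the one brighter over both tissues. Evpl log2 ratios were 4.35, 4.01, 4.60, 4.76 and 4.34 at D0, 4.67, 4.34, 4.26, 4.34 and 4.48 at D1, 4.52, 3.95, 4.42 and 4.43 at D2 and 4.64, 4.22, 4.37 and 4.64 at D3. All 18 lay between 3.95 and 4.76 with D2 mouse 12 the lowest. At D3 the differences were 0.48 for Tgm3 (95% interval -0.45 to 1.402), 0.12 for Tgm1 (-0.93 to 1.17), 0.06 for Evpl (-0.26 to 0.37) and 0.42 for Ppl (-0.33 to 1.18). The other probe of Tgm3 had a D3 value of 0.05. Evpl and Ppl were higher than in lung by 2.21 and 2.14.

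Desmosomes hold keratinocytes together, with desmogleins and desmocollins as the adhesive cadherins, plakoglobin (Jup) and plakophilin (Pkp1) as linkers, and desmoplakin (Dsp) as the tie to keratin. Of the 8 genes, 6 were called higher in forestomach than in lung, led by Cdsn (6.44) and Pkp1 (5.88). Dsg1a (0.93, adjusted p = 0.0699 by limma) and Jup (0.18) were not called. Dsc2, the desmocollin that simple epithelia also use, had log2 ratios of 4.76, 2.02, 3.07, 2.15 and 0.66 at D0, 2.10, 4.15, 1.15, 0.59 and 3.70 at D1, 2.91, 4.75, 3.38 and 1.22 at D2 and 3.15, 3.46, 2.66 and 3.90 at D3. D0 mouse 1 and D2 mouse 12 were the highest, and D0 mouse 5 and D1 mouse 9 the lowest, and its SD over the D0 mice was the widest of the list. The value of 2.66 for mouse 18 is the mean of 0.94 on its first array and 4.39 on its second. Cdsn, corneodesmosin, which holds squames together until they are shed, had log2 ratios of 1.66, 4.29, 3.63, 4.05 and 4.29 at D0, 4.29, 3.67, 4.08, 3.97 and 3.29 at D1, 4.28, 1.64, 3.60 and 4.25 at D2 and 4.53, 4.27, 3.74 and 3.22 at D3. D0 mouse 1 and D2 mouse 12 lay at 1.66 and 1.64 and the other 16 mice at 3.22 or more. Pkp1 log2 ratios were 3.102, 4.06, 4.03, 4.60 and 4.32 at D0, 4.47, 4.08, 4.35, 4.30 and 4.18 at D1, 4.40, 3.25, 4.10 and 4.26 at D2 and 4.41, 4.20, 4.04 and 3.66 at D3. The same pair of mice was the lowest, and D0 mouse 4 the highest. At D3 the differences from D0 were 0.66 for Dsg3 (95% interval -0.51 to 1.84), 0.57 for Dsc3 (-0.70 to 1.83), 0.35 for Cdsn (-0.81 to 1.51) and 0.05 for Pkp1 (-0.50 to 0.60). By their other probes Dsg3 had 0.10 and Dsc3 0.15, while Dsp had 0.38 by its other probe and 0.27 by its brightest.

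Klk8, a secreted serine protease of the upper layers that takes part in shedding, had log2 ratios of 3.96, 5.16, 4.89, 4.99 and 5.73 at D0, 6.20, 5.27, 5.27, 5.57 and 5.50 at D1, 5.95, 3.61, 4.95 and 5.54 at D2 and 5.72, 5.31, 5.40 and 4.76 at D3. D1 mouse 6 was the highest and D2 mouse 12 the lowest, and the groups overlapped. It was 3.26 higher than in lung, and its D3 difference was 0.35 (95% interval -0.49 to 1.19).

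Among the regulators, Grhl3, Klf4 (a Krüppel-like factor of terminal differentiation) and Klf5 were called higher in forestomach than in lung, at 4.64, 1.69 and 1.53. Grhl3, a grainyhead-like factor of barrier formation, had log2 ratios of 3.83, 5.83, 4.67, 4.96 and 6.59 at D0, 6.49, 4.76, 5.97, 6.08 and 5.92 at D1, 6.18, 3.54, 4.97 and 5.83 at D2 and 6.21, 5.44, 5.73 and 4.54 at D3. D0 mouse 5 and D1 mouse 6 were the highest, and D2 mouse 12 and D0 mouse 1 the lowest. Klf5, a Krüppel-like factor of proliferating epithelium, had log2 ratios of 1.96, 2.25, 1.93, 1.89 and 2.32 at D0, 1.99, 1.96, 2.07, 1.71 and 1.97 at D1, 2.07, 2.16, 1.93 and 2.27 at D2 and 2.50, 2.38, 1.81 and 1.97 at D3. All 18 lay between 1.71 and 2.50, with D1 mouse 9 the lowest and D3 mouse 16 the highest. Sox2, a factor of foregut identity, had log2 ratios of 1.60, 4.13, 1.51, 1.27 and 2.97 at D0, 3.04, 2.85, 2.46, 1.66 and 2.65 at D1, 3.53, 2.25, 2.15 and 2.17 at D2 and 3.83, 3.61, 2.49 and 1.75 at D3. The highest was D0 mouse 2, followed by D3 mice 16 and 17, and D0 mice 1, 3 and 4 were the lowest. Sox2 differed from lung by 0.85 (adjusted p = 0.180 by limma), and with the mouse as a replicate block, since the same animals gave both tissues, the adjusted p was 0.00449. That was the lowest over the alternative runs, in which the Sox2 difference ran from 0.01 to 1.65 and the adjusted p by limma reached 0.988. Trp63, the p63 gene that maintains stratified epithelium, had log2 ratios of 2.99, 6.45, 5.10, 4.90 and 5.76 at D0, 6.27, 5.40, 5.86, 5.71 and 5.26 at D1, 6.50, 3.97, 5.59 and 6.23 at D2 and 6.30, 6.49, 5.23 and 4.62 at D3 by its forestomach-brighter probe (NM_011641). D0 mouse 1 and D2 mouse 12 were the lowest, and the groups overlapped. This probe differed from lung by 5.33 (adjusted p = 1.94e-12 by limma), whereas the probe brighter over both tissues (NM_001127261) differed by -0.14. Pax9, a factor of foregut and oral epithelium, was above background on 5 forestomach arrays and differed from lung by 0.39. With the forestomach-brighter probes 35 of the 41 genes were called higher than in lung and 0 lower. The D3 differences were 0.62 for Sox2 (95% interval -0.54 to 1.79), 0.62 for Trp63 (-0.66 to 1.90), 0.31 for Grhl3 (-0.89 to 1.501) and 0.09 for Klf5 (-0.19 to 0.38).

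For 15 of the called genes the probe was not well above background on any lung D0 array, so the fold is one from a background value. A figure from the Cy5 channel alone, after loess and Aquantile and with no dye swap, was larger than the fold of the fitted log ratios for 9 of the 15 genes and smaller for 6. The smaller of both is given for each gene, a choice made after seeing the values. On that measure the 6 were higher by 1.77-fold for Ivl, 2.76-fold for Dsc3, 3.86-fold for Dsc2, 4.83-fold for Sprr1b, 4.89-fold for Krt84 and 5.03-fold for Dsg3. Of the 9 others, the lowest was Krt6a at 3.24-fold and the highest Krt1 at 146-fold. All are point estimates without an interval, and they depend on the scaling. Under median centring the log2 difference of Krt6a was 0.49 (adjusted p = 0.266 by limma). Over the alternative runs that of Krt1 fell as low as 4.59.

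These genes varied more between untreated mice than most probes. Over the 5 D0 forestomachs the genes' median SD was 0.603 on the log2 scale, and 0.584 for the 32 genes above background on every forestomach array, against 0.285 over 15178 probes that met the same condition. In all, 28 of the 41 genes had an SD above that value. Basal keratins were among the narrow ones, with SDs of 0.231 (Krt5, brightest probe), 0.236 (Krt14) and 0.193 (Krt15), while Krt16 had 1.08 and Krt6a 1.01. The widest were Dsc2 (1.51), Sprr1b (1.503) and Trp63 (1.30).

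Taking the median of the 41 genes relative to their D0 means, the D0 mice ran from -0.31 to 0.21, D1 from -0.04 to 0.44, D2 from -0.57 to 0.47 and D3 from -0.10 to 0.59. The highest mouse of each dosed group was mouse 6, 11 or 16, with medians of 0.44, 0.47 and 0.59, and these were the highest of their group for 25, 26 and 29 of the 41 genes. These 3 mice make up the forestomach arrays of slide 1, which held no D0 array. With slide as a block the D1, D2 and D3 medians were 0.01, -0.14 and 0.07. Within a slide that held both groups, the D3 median relative to D0 was 0.07 on slide 2, -0.23 on slide 3, 0.03 on slide 4 and 0.25 on slide 5. Each of these sets 1 D3 array against 1 D0 array (2 on slide 5). The D3 arrays of slides 4 and 5 are both labelled mouse 18, and the glandular stomach score also differed within slides. Without mouse 16 the D3 median was 0.05. The lowest mice were D0 mouse 1 at -0.31, lowest of D0 for 23 genes, D2 mouse 12 at -0.57, lowest of D2 for 26, and D3 mouse 19 at -0.10, lowest of D3 for 24. Without mouse 1 the D3 median was 0.10, and without mouse 19 it was 0.36. Centring each array on its median shifted bright probes by 0.23, 0.65 and 0.72 at D1, D2 and D3. Relative to that shift the genes' medians were 0.14, -0.11 and 0.01, with 25, 15 and 22 of the 41 above it. The other squamous differentiation genes were high and low in the same mice: their mean relative to D0 was 0.81, 0.70 and 0.69 in mice 6, 11 and 16, and -0.73 and -0.80 in mice 1 and 12. The part of slide, or of the share of epithelium in a section, in these differences between mice was not tested.

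**Figure D4:**
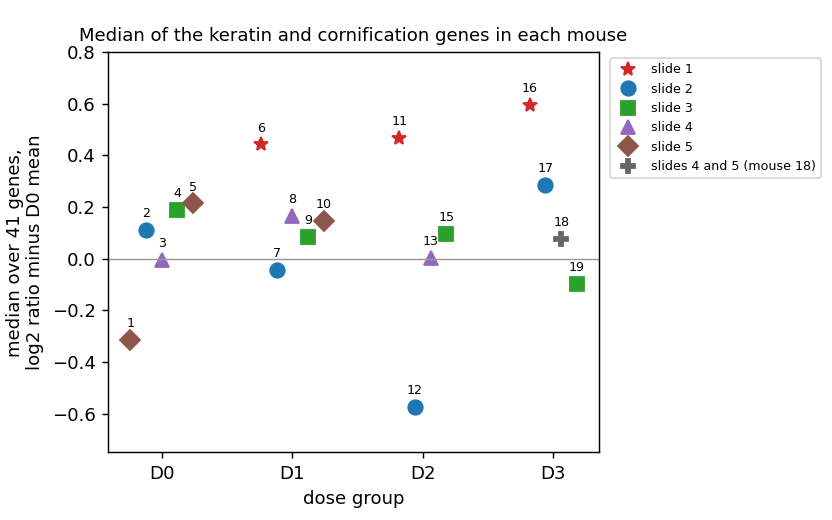
Median over the 41 genes of the log2 ratio relative to the D0 mean, 1 point per forestomach mouse, by dose group and marked by slide. The 3 mice of slide 1 (mice 6, 11 and 16, at 0.44, 0.47 and 0.59) are the highest of their groups, and D2 mouse 12 is the lowest at -0.57.

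Glandular stomach RNA moved with some of these genes. Glandular genes were well above background on all 13 higher-score arrays, whereas on the 6 low-score arrays Tff1 and Muc5ac were so on all 6, Gkn2 and Gkn3 on 4, Pgc and Chia1 on 2, Gkn1 and Atp4b on 1, and Tff2 and Atp4a on 0. The score ran from -3.32 to 2.83 over D0 arrays, from -3.59 to 2.07 at D1, from -3.04 to 1.86 at D2 and from -2.98 to 2.41 at D3. At D3 the 10 glandular genes had a median of 1.18 relative to D0, led by Gkn2 (1.52), Chia1 (1.504) and Gkn3 (1.37), with 0 called. The slope of each probe on the score was fitted with dose group in the model, over all 19 arrays. In it the 2 of mouse 18 stood apart, although by the labels they are not separate mice. It was called for 2 of the 41 genes, both upward, where 3.51% of all probes were called, 2.71% upward and 0.792% downward (adjusted p by limma with Benjamini-Hochberg, no fold threshold). Those 2 were Dsc2, at 0.48 log2 units per unit of score (SE 0.0653, adjusted p = 3.14e-04), and Krt6a, at 0.29 (SE 0.0657, adjusted p = 0.0229). Without mouse 18 Krt6a was not called, at 0.27 (adjusted p = 0.0967 by limma), and its call was also lost without mouse 1, 5, 7, 9, 10 or 15. The other stress keratins also had values above 0, at 0.16 for Krt6b, 0.22 for Krt17 and 0.22 for Krt16, with adjusted p of 0.0509, 0.0710 and 0.0894. The lowest slope value was that of Grhl3 at -0.20 (adjusted p = 0.122 by limma). Of 5 simple epithelial keratins, which line glandular stomach, 4 were called upward, led by Krt20 at 0.99 and Krt18 at 0.89, and of the 49 other squamous genes 0 were called. At an unadjusted p of 0.05, 12 of the 41 genes and 13 of the 49 other squamous genes passed, against 9299 of all 55681 probes. Under median centring 208 of all probes were called, 100% of them upward, against 77.4% of 1952 under loess and 64.3% of 2162 in the authors' value table.

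By array, Dsc2 was 1.10 ± 0.52 (SD, n = 6) on the low-score arrays and 3.53 ± 0.87 (SD, n = 13) on the others. All 6 lay below the lowest of the 13 by a narrow margin, with the highest of the 6 at 2.02 and the lowest of the 13 at 2.10. Here n counts arrays, and mouse 18 has 1 on each side. How many of all probes separate in this way was not counted, so whether the separation of Dsc2 is unusual cannot be told. Krt6a was 0.78 ± 0.87 against 2.28 ± 0.62, Krt6b 6.14 ± 0.55 against 6.94 ± 0.49, Krt16 1.60 ± 0.81 against 2.72 ± 0.77, and Krt17 2.49 ± 1.12 against 3.64 ± 0.41, each overlapping. D1 mouse 6, on slide 1 and with a score of 1.17, had low Krt6a (0.55) and Krt16 (0.59). With slide as a block, 15 of the 41 genes were called where 10.4% of all probes were (5.2% upward and 5.19% downward). Upward were Dsc2, all 4 stress keratins, Lor and Evpl, and downward Grhl3, Ivl, Tgm3, Sox2, Krt4, Dsg1a, Rptn and Dsp. In that fit Dsc2 had a slope of 0.47 and Krt6a of 0.30, and Grhl3 of -0.26 (adjusted p = 0.00361 by limma). Over the 2 arrays of mouse 18, 23 of the 41 genes were higher on the array with the higher score. Whether glandular tissue in the section accounts for the differences in Dsc2 and the stress keratins was not tested.

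**Figure D5:**
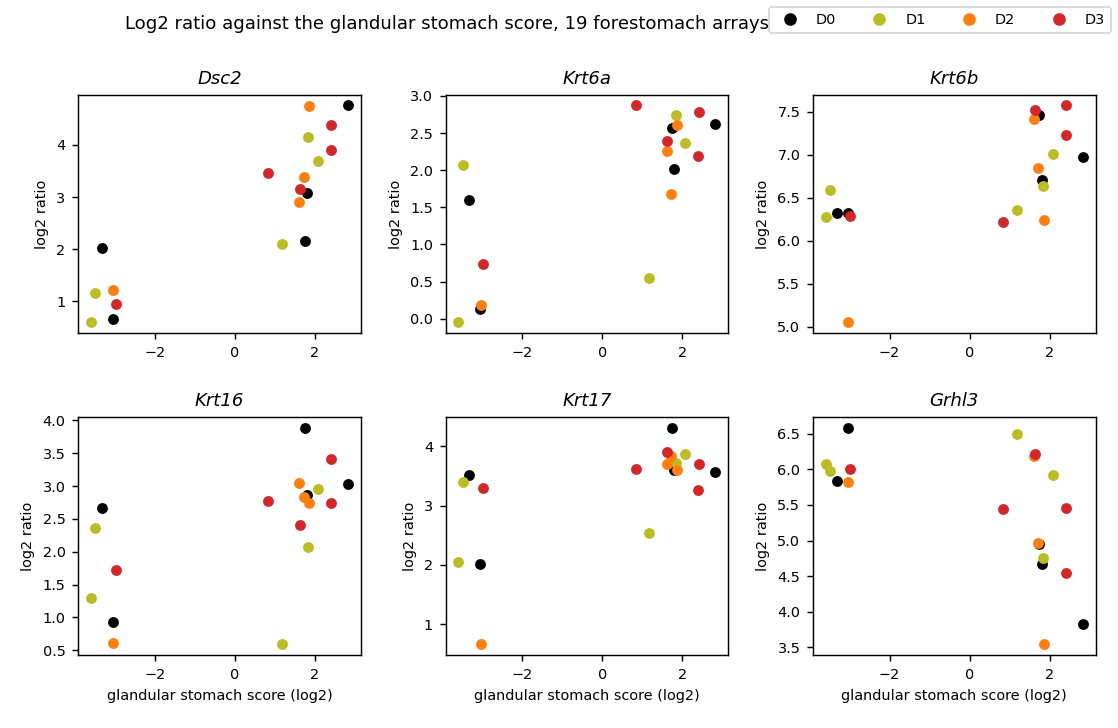
Log2 ratio of Dsc2 and the stress keratins (vertical axes) against the glandular stomach score (horizontal axis), 1 point per forestomach array, coloured by dose group. Dsc2 is lower on each of the 6 arrays with a score under -2.9 (at most 2.02) than on any of the 13 others (at least 2.10), and the stress keratins overlap. The share of all probes that separate in this way was not counted, and mouse 18 has 1 array on each side.

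In lung, where fewer of these genes were above background, 0 of the 41 were called at D1, D2 and D3, where 0.14%, 0.264% and 0.639% of all probes were (limma, Benjamini-Hochberg). The genes' medians were -0.04, -0.04 and -0.05. At an unadjusted p of 0.05, 0 genes passed at D1 and D2 and 3 at D3, against 3636, 4487 and 6271 of all probes. For Klk8 the log2 ratios were 1.71, 2.14, 1.22, 1.38 and 1.96 in lung D0 mice 1 to 5 and 2.21, 2.76, 2.07, 1.74 and 2.68 in D3 mice 16 to 20, so that mice 16, 17 and 20 were above every D0 mouse and the groups overlapped. The 3 differences were Klk8 at 0.61 (95% interval 0.15 to 1.08), with 5 of 5 D3 mice above the D0 mean, Sprr1a at -0.34 and Pax9 at -0.17, whose probe was well above background on 0 of 19 lung arrays, so that its value is one at background. The adjusted p of Klk8 was 0.247 by limma, and with slide or scan day as a block it was called at 0.61 (adjusted p = 0.0234) and 0.59 (adjusted p = 0.0251). The D3 response was also compared between the tissues directly. No gene of the 41 was called, where 0.172% of all probes were. Only 1 of the 41 passed at an unadjusted p of 0.05, against 2781 of all 55681 probes. That gene was Crnn at 0.46 (95% interval 0.05 to 0.87), whose probe was well above background on 8 forestomach and 3 lung arrays. The median of the D3 response in forestomach minus that in lung was 0.26 over the 41 genes and -0.00 over all probes. It rests on the probe brightest over both tissues, which for Tgm3 and Trp63 is not the probe behind their forestomach D3 values.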

How the data were processed

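RNA from forestomach and lung was hybridised to Agilent mouse arrays of 62976 spots. The authors deposited scanner files from Feature Extraction 10.7.3.1 with median spot and background signals on a linear intensity scale and a log10 ratio, and a value table of log2 ratios, whose columns had medians of -0.042 to -0.020 and followed the scanner values with slopes of 0.990 to 0.998, so Cy5 over Cy3 was its direction. The study's methods normalised signals without background subtraction by loess and tested with another package (MAANOVA). Here loess was run on the median signals without background correction in R 4.3.3 with limma 3.58.1, spots of a probe were averaged (59305 non-control spots, 55681 probes, of which 26413 carried a symbol), and groups were fitted with lmFit and eBayes. No spot was saturated on these arrays (0 flags). The number of arrays limits the precision.

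A gene was called at a Benjamini-Hochberg adjusted p of at most 0.05 over all probes and a fold change of at least 1.5, and a slope at the adjusted p alone. The brightest probe over the arrays of a fit stood for a gene (13 genes had 2 probes). Mice were the replicates, with 2 arrays of mouse 18 averaged except in the slope, and p-values measure the spread between mice and the sections taken from them. Values in every mouse are given for the highest and lowest D3 difference and the largest tissue difference of each role, and for the 3 genes with the widest D0 SD. The same animals gave both tissues per the labels, and over 18 mice the correlation of their deviations between tissues was 0.0815 to 0.367, above 0.1 in 17. The members and lists were chosen with earlier results of these data known. Median centring, normexp (offset 50), the deposited log ratios, a filter on dim probes, slide, scan day and mouse as blocks, the mean over probes, the arrays of mouse 18, the glandular score and leaving out each mouse were tried. The steps were tested on simulated data. Promoter sequences are those of RefSeq.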

Additional observations from a re-analysis of the deposited data

Results flagged for a closer look

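Within dose groups of forestomach, a single mouse stood apart from the rest of its group in 8 of 104 combinations of a named gene and a group, by Dixon's criterion at the 95% level, which chance alone passes in about 5% of groups. Krt4 was 7.49 in D1 mouse 6, with the next mouse at 6.12. Krt1 was 5.94 in D0 mouse 2 and 5.62 in D2 mouse 12, with the nearest mice of those groups at 7.03 and 6.99. Krt78 was 3.85 in D2 mouse 12, with the nearest at 4.43. Krt16 was 0.60 in D2 mouse 15, against 2.74 in the nearest mouse, on an array low in glandular stomach genes. Cdsn was 1.66 in D0 mouse 1, against 3.63 in the nearest. Sox2 was 3.53 in D2 mouse 11, against 2.25 in the nearest. Klf5 was 1.71 in D1 mouse 9, with the nearest at 1.96. Mice 2 and 12 were on slide 2, and mice 6 and 11 on slide 1.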

How the results depend on the processing

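The dose comparisons in forestomach gave 0 called genes under each alternative run, and the tissue comparison gave 28 to 36. With the mouse as a replicate block, 34 genes were called higher in forestomach than in lung, all 33 of the unblocked fit among them, and the block changed no call in the D3 response between tissues (0). Median centring moved the genes' median difference from D0 to 0.38, 0.54 and 0.74 for D1, D2 and D3, against bright-probe shifts of 0.23, 0.65 and 0.72. Leaving out each mouse gave medians between -0.01 and 0.18 for D1, between -0.14 and 0.12 for D2 and between 0.05 and 0.36 for D3, and 32 to 34 tissue calls. In lung at D3, 1 gene (Klk8) was called with slide and 1 with scan day as a block. With the mean over probes, Tgm3 and Trp63 turned from below to above lung, at 1.39 and 2.59, since their probes disagree. Slope calls were the least settled. Their number was 2 in the main fit, where 1952 of all probes were called. It was 1 under median centring (208 of all probes) and 15 with slide as a block (5785 of all probes). It was 4 with the filter on dim probes, 4 with the mean over probes, and 1 with the second array of mouse 18 alone. It was 1 without D0 mouse 1 and D2 mouse 12, an alternative chosen after seeing the data, and 1 to 5 leaving out each mouse. It fell to 1 without mouse 1, 5, 7, 9, 10, 15 or 18, when Krt6a lost its call, and reached 4 or 5 without mouse 6, 8 or 11. Dsc2 kept its call in all 18 of those fits, at 0.45 to 0.53. Within the 13 higher-score arrays, also chosen after seeing the data, Dsc2 had a slope of 1.22 with an adjusted p of 0.0678 by limma, and 2 other genes were called. For slope runs given without a count over all probes, the number of these genes called cannot be set against the share of all probes. The causes were not tested. Signal over background limits Krt36, Pax9, Crnn and Dsg1a in forestomach and the 15 genes at background in lung D0.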
